A study of Caenorhabditis elegans with 2 samples.

Results

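The regions described here were the strong EFL-3 binding peaks of Caenorhabditis elegans autosomes that lay away from protein-coding genes. They were chosen by their signal value in the list called on the pooled replicates: a member ranked 1 to 3000, was not on the X chromosome, and had its summit outside every protein-coding gene body and outside every window of 1000 bp upstream to 500 bp downstream of a protein-coding start. There were 471 such peaks among the 30000 of the pooled list, and among the 2563 autosomal peaks of the top 3000. EFL-3 was mapped by chromatin immunoprecipitation with sequencing (ChIP-seq) in whole L1 larvae, with an antibody against GFP. All larvae were of the strain OP344, which carries unc-119(tm4063) and the transgene wgIs344, in which F49E12.6, the sequence name of efl-3, bears a TY1, EGFP and 3xFLAG tag beside a copy of unc-119(+). They were of mixed sex, 6 hours old and starved after bleaching, and the single group had 2 biological replicates. The transgenic line adds tagged copies of efl-3 to the animals, and signal from whole larvae mixes all tissues. Per the labels nothing else was varied, so the comparisons below are between groups of peaks.

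E2F proteins are transcription factors best known for the control of cell-cycle genes, mostly from sites close to gene starts. EFL-3 is the worm member most like the mammalian repressors E2F7 and E2F8, which bind DNA without a DP partner. In C. elegans it is known for keeping the cell-death gene egl-1 off in neuroblasts of the ventral cord. Worm intergenic regions are short, and sequence far from a start can hold enhancers, the promoters of noncoding RNA genes, pseudogenes or repeats.

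The sequences at 3 of the strongest members show the kinds of DNA found at these summits. They run 100 bases to each side of the summit, from the plus strand of the RefSeq genome of WBcel235, the assembly also called ce11. Capitals mark the E2F consensus in the first (TTTCCCGC, TTTCGCGC, TTTGCCGC or TTTGGCGC on either strand) and the GAGA repeat (GAGAGA on either strand) in the other two.
ztf-27 (chrII:10382225-10382425): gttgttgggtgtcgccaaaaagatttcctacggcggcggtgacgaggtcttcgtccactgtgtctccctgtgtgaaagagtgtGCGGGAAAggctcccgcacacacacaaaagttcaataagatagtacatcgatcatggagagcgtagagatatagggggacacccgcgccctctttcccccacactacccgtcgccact
T04C4.3 (chrIV:2219530-2219730): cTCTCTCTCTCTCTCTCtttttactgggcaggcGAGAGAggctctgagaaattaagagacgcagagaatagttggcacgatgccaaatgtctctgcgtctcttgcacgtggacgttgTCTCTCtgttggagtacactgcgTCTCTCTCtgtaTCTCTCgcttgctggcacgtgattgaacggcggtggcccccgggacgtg
nhr-88 (chrII:2974000-2974200): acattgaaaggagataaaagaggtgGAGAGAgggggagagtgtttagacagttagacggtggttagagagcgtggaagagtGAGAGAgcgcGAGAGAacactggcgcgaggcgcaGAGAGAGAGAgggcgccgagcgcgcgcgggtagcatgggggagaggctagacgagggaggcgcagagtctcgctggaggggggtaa
The window 3008 bp upstream of ztf-27 had 1 E2F match, beginning 17 bp to the left of the summit. The windows upstream of T04C4.3 and nhr-88 had 11 and 6 overlapping matches to the GAGA repeat and no E2F match.

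The strongest member lay 3008 bp upstream of ztf-27, a gene for a zinc-finger protein, at position 10382325 of chromosome II. Its pooled signal was 362.4, rank 12 of the whole list, with 185.5 in replicate 1 and 177.3 in replicate 2. The signal, a unitless enrichment value given by the authors' peak caller, differs in scale between lists, so ranks are given beside it. The ztf-27 peak ranked 13 in replicate 1 and 8 in replicate 2, so both replicates placed it near the top. The next member, in the divergent gap between T04C4.3 and fnip-2, had a pooled signal of 277.8, with 153.7 in replicate 1 and 120.3 in replicate 2. The member 2617 bp upstream of F58D12.3 had a pooled signal of 273.7, with 145.5 in replicate 1 and 120.3 in replicate 2. These 3 members ranked between 8 and 36 in each replicate.

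The member 1978 bp upstream of cyp-14A5, a cytochrome P450 gene, had a pooled signal of 268.6, with 142.2 in replicate 1 and 125.0 in replicate 2. It lay within 200 bp of the long noncoding RNA gene linc-96. The member upstream of C34B4.2 reached 245.0 in the pooled list, with 133.1 in replicate 1 and 115.0 in replicate 2. A member lay 167 bp past the 3′ end of nlp-40, which encodes a neuropeptide that acts in defecation. Its pooled signal was 222.7, with 124.9 in replicate 1 and 92.84 in replicate 2. The member 6522 bp upstream of Y105C5A.1 had a pooled signal of 211.2, and that 2539 bp upstream of nhr-88, a nuclear hormone receptor gene, 206.0. The nhr-88 peak had a signal of 124.6 in replicate 1 and 85.52 in replicate 2. Among the 25 strongest members, 24 had a summit in both replicate lists within 100 bp and 24 were in the top 3000 of both.

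**Figure D1:**
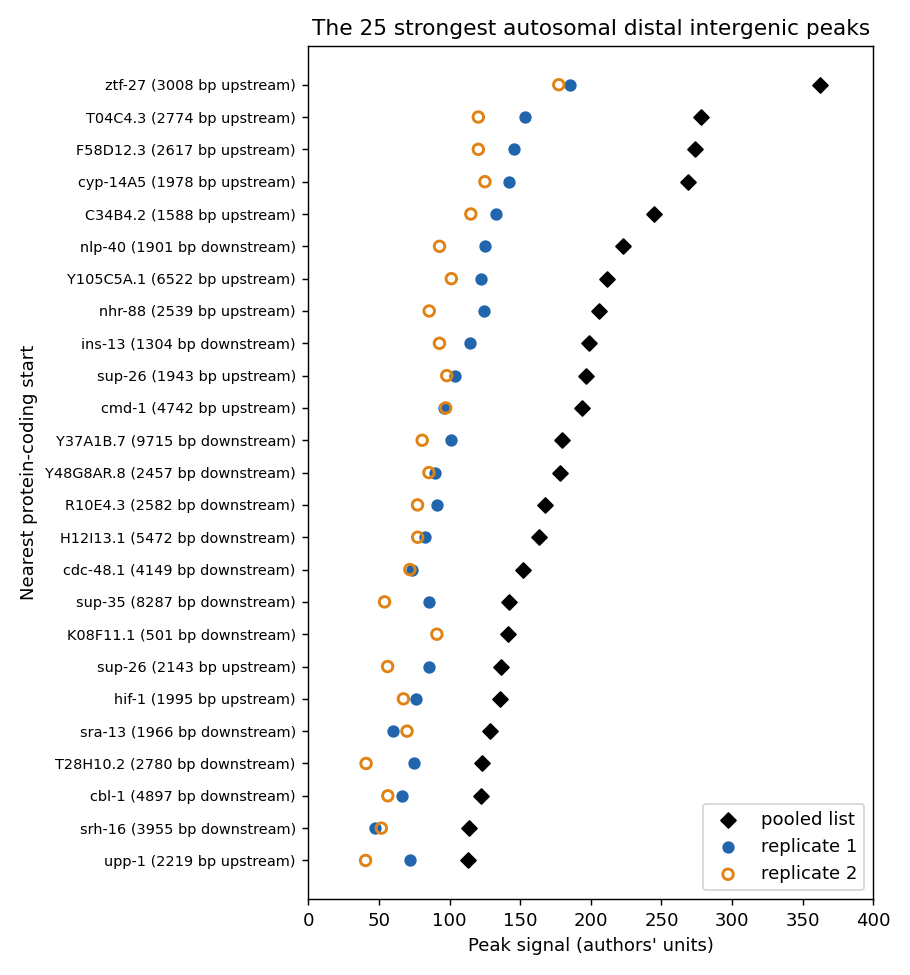
Signal of the 25 strongest members (authors' units, no unit of measure) in the pooled list and in each replicate list, by nearest protein-coding start and the distance to it. Pooled signals run between 113.2 and 362.4, and both replicate points are present for 24 of the 25, the exception being K08F11.1, which has none in replicate 1.

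The exception was the member 501 bp downstream of the K08F11.1 start, with a pooled signal of 141.6 and a replicate 2 signal of 90.94. No replicate 1 summit lay within 100 bp of it, while its rank in replicate 2 was 76. Of the 50-base words within 100 bp of its summit, 71.7% occurred elsewhere in the genome. Other members among the 25 lay near genes of varied function. The member 4149 bp downstream of the cdc-48.1 start, a gene for an ATPase that extracts ubiquitinated proteins, had a pooled signal of 152.2, with 73.23 in replicate 1 and 71.83 in replicate 2. A member 1995 bp upstream of hif-1, the hypoxia-inducible factor, had 135.4 in the pooled list, with 76.15 in replicate 1 and 67.24 in replicate 2. The member 4742 bp upstream of cmd-1, the calmodulin gene, had 193.4 in the pooled list, with 96.08 in replicate 1 and 97.19 in replicate 2. These 3 members ranked no lower than 200 in either replicate.

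Over all 471 members the pooled signal ran between 59.98 and 362.4, with a median of 68.6 and quartiles of 63.2 and 77.9. Most members therefore lay close to the limit of the rule. The 5 just inside it, nearest to tig-3, Y46E12A.3, C24A11.1, apx-1 and Y73F8A.35, had signals of 60.05 down to 59.98. The 5 distal peaks just outside, nearest to tba-7, F53H2.3, xbx-4, madd-2 and F46A8.11, had signals of 59.97 down to 59.89. Distal here means by the same position rule. The −log10 q that the authors deposited corresponds to a q-value below 0.05 for 23 members (4.88%), against 8.84% of the other strong autosomal peaks, and below 0.1 for 33 members (7.01%), against 12.7%.

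Replicate support was uneven among the members. Since both replicates enter the pooled signal that chose the members, these counts are descriptions and were not tested. A replicate 1 summit lay within 100 bp of 417 members and a replicate 2 summit within 100 bp of 392, and both did for 343. In the top 3000 of replicate 1 there were 255 members and in that of replicate 2 there were 218. A place in both was held by 96 members (20.4%), against 21.9% of the other 2092 strong autosomal peaks, and 94 members were in neither. The reproducible set, which the authors made by thresholding on the irreproducible discovery rate and which holds the 430 strongest pooled peaks, contained 45 members (9.55%), against 14.6% of the other strong autosomal peaks. Of these 45 members, 42 were in the top 3000 of both replicates.

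**Figure D2:**
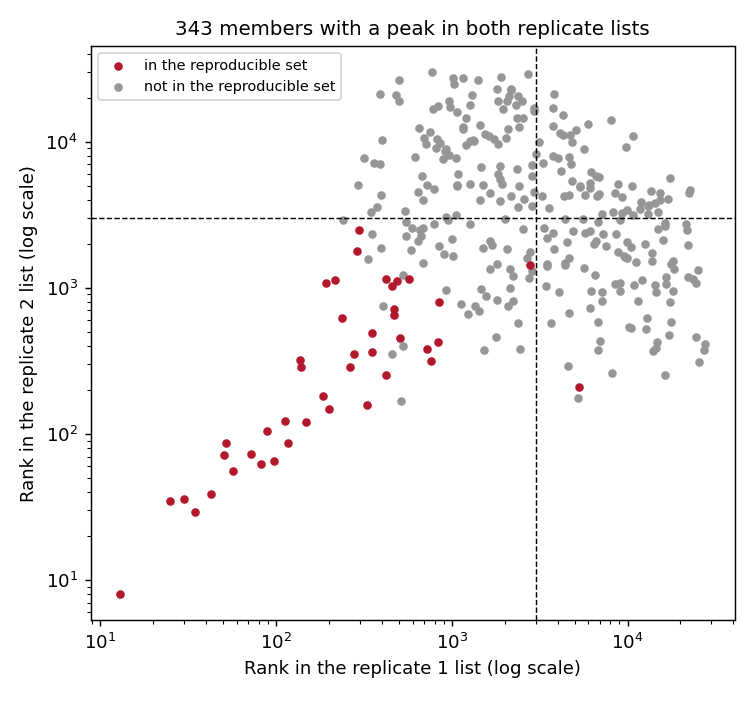
Rank of each of the 343 members with a summit in both replicate lists, in replicate 1 (horizontal) and replicate 2 (vertical), on log axes, with members of the reproducible set in red and dashed lines at rank 3000. The red points gather at low ranks in both lists, while many grey points lie past rank 3000 in one list or the other.

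Members lay a median of 2574 bp from the nearest protein-coding start, with quartiles of 1619 and 4490 bp and a range of 501 to 18377 bp. The lower-ranked distal peaks, which are the 4065 autosomal peaks past rank 3000 that meet the same position rule, had a median of 2608 bp. Because the rule sets a minimum distance, no test was made of it. The summit was upstream of the nearest start for 67.7% of members and 67.5% of lower-ranked distal peaks. Divergent gaps, in which both neighbouring genes point away, held 30.6% of members and 30.9% of lower-ranked peaks. Tandem gaps held 56.9% and 55.3%, and convergent gaps 12.3% and 13.8%, in that same order. The gap around a member had a median length of 7614 bp, against 7227 bp for lower-ranked peaks. None of these shares differed between the groups by as much as 2 percentage points, a description with no test.

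The members farthest from a start were 18377 bp from that of Y105C5B.1418, 16564 bp from that of aakg-1, 14156 bp from that of dmsr-2, 11632 bp from that of snt-1 and 11569 bp from that of egl-27. A distance over 5000 bp was found for 92 members (19.5%), against 18.55% of lower-ranked distal peaks. One over 10000 bp was found for 17 of the 471 members and 99 of the 4065 lower-ranked peaks. Of the 5 farthest, the snt-1 member was the strongest, with a pooled signal of 109.2, and 68.69 in replicate 1 and 45.16 in replicate 2. It also was the only one of these 5 in the reproducible set.

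Some members shared a gap with another, a count made for members only, so it has no other group of peaks beside it. The 471 members lay in 396 gaps, and 56 gaps held 2 or more of them, 131 members in all. The fullest was the tandem gap of 18575 bp between snt-1, the synaptotagmin gene, and egl-27, which encodes a chromatin factor of the MTA family. It held 6 members, with pooled signals of 67.54 to 109.2. Of the 4 nearest to the egl-27 start, the strongest had a pooled signal of 82.41, with 55.97 in replicate 1 and 28.46 in replicate 2. The 3 members in the divergent gap of pop-1, the worm TCF factor of Wnt signalling, were weaker, with pooled signals of 63.89 to 65.67, and none was in the top 3000 of both replicates. These gaps were singled out after their counts were seen.

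The tandem gap of 5617 bp between sup-26 and R10E4.3 held 3 of the 19 strongest members. Sup-26 encodes an RNA-binding protein that acts in sex determination. The member 1943 bp upstream of its start, at position 4282167 of chromosome III, had a pooled signal of 196.9, with 103.8 in replicate 1 and 97.96 in replicate 2. The second, 2143 bp upstream and thus within 380 bp of the first, had a pooled signal of 136.6, with 85.09 in replicate 1 and 56.04 in replicate 2. The last of them, 4673 bp upstream of sup-26 and nearest to R10E4.3, had a pooled signal of 167.2, with 90.84 in replicate 1 and 77.26 in replicate 2. The other strong peaks at sup-26, which lay in promoter windows, were weaker, with pooled signals of 68.6, 73.02 and 74.07. The distal peaks were therefore the strongest at this locus, which was chosen after its values were seen.

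The efl-3 gene itself (chromosome II, 8412671 to 8416857, plus strand) had 2 members upstream. The summit 2975 bp upstream of its start had a pooled signal of 128.8, with 59.91 in replicate 1 and 69.79 in replicate 2. It was nearest to the start of the chemoreceptor gene sra-13. The summit 2185 bp upstream of efl-3 had a pooled signal of 107.3, with 54.31 in replicate 1 and 58.28 in replicate 2. Within the efl-3 body a peak 2992 bp past the start was stronger, at 204.2, with 101.1 in replicate 1 and 102.4 in replicate 2. Since the transgene carries efl-3, copies of this locus are present in the strain in addition to the genomic one, and the part of that in the signal was not tested.

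**Figure D3:**
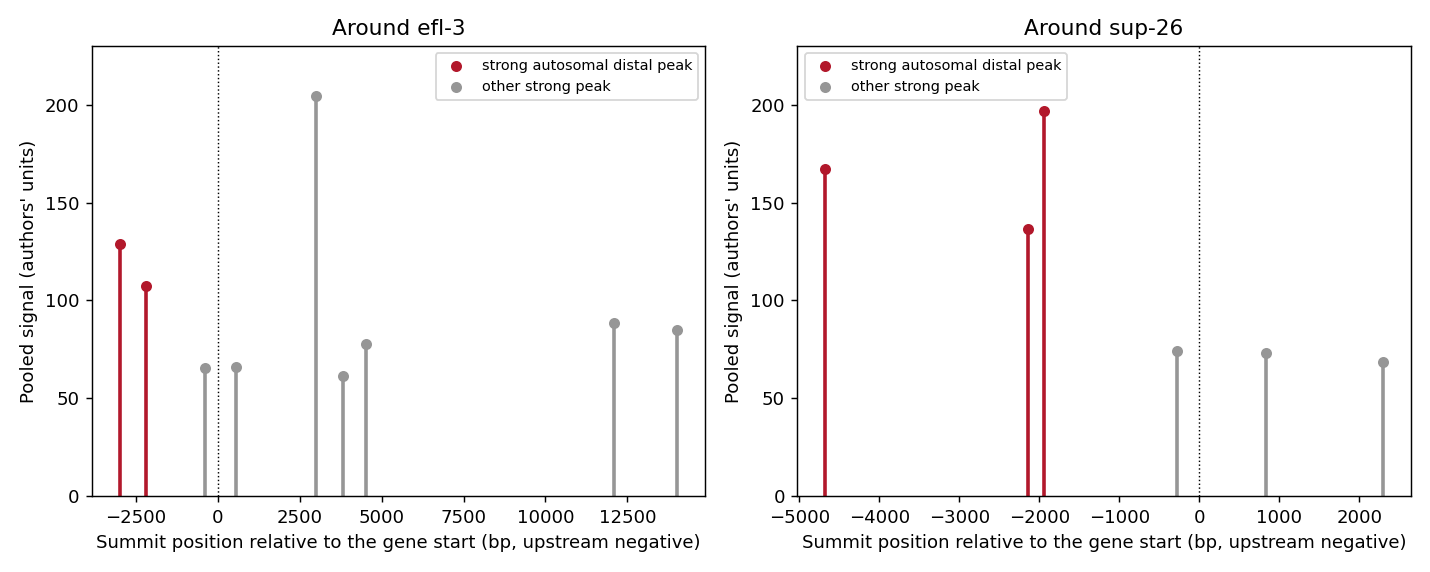
Pooled signal (authors' units) of all top 3000 peaks around efl-3 (left) and sup-26 (right), by the position of the summit relative to the gene start in bp, with upstream negative. Members are red and other strong peaks grey. At sup-26 the 3 red peaks stand above the 3 grey ones, while at efl-3 the tallest peak, of 204.2, lies inside the gene.

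To learn what the members share beyond what the rule used, 14 features were compared with 4 other groups of peaks. Of the 56 comparisons, 16 (28.6%) passed an adjusted p of 0.05. The rule sets position relative to protein-coding genes. Comparisons of pseudogenes, noncoding and small RNA genes and repeated sequence with promoter and gene-body peaks are therefore not free of it. All were two-sided Fisher exact tests with Benjamini-Hochberg adjustment over all 56. They treat peaks as independent, which neighbouring peaks are not, and say nothing of the spread between cultures. Of the 14 features, 7 differed from lower-ranked distal peaks, 5 from strong promoter peaks, 3 from strong gene-body peaks and 1 from strong X distal peaks. The lower-ranked distal peaks met the same position rule as the members.

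Noncoding RNA genes were close to members more often than to peaks of 3 of the 4 other groups. Of these 3, only the lower-ranked distal peaks met the same position rule. The differences from promoter and gene-body peaks are not free of the rule. A summit lay within 200 bp of any noncoding RNA gene for 113 members, 24.0% (95% Wilson interval 20.4 to 28.1%), against 13.3% of lower-ranked distal peaks (adjusted p = 9.27e-08), 14.1% of strong promoter peaks (adjusted p = 1.83e-05) and 11.8% of strong gene-body peaks (adjusted p = 1.23e-07), each by Fisher's exact test. Strong X distal peaks had 33.3% (adjusted p = 0.101), and this higher share passed under 3 other settings, the narrower promoter window of 500 bp upstream to 200 bp downstream (adjusted p = 0.0302) and each replicate alone (adjusted p = 0.0449 for replicate 1 and 0.0249 for replicate 2, exact tests). Windows tiled over all autosomal distal sequence had such a gene in 13.3% of cases. By kind, genes annotated only as ncRNA were within 200 bp of 75 members, 15.9%, against 7.87% of lower-ranked and 26.1% of strong X distal peaks. Long intergenic or antisense RNA genes were near 12 members (2.55% against 1.255% of lower-ranked distal peaks) and piRNA genes near 16. The piRNA share, 3.40% of members, was close to the 3.74% of lower-ranked distal peaks. The summit lay inside a noncoding gene or pseudogene for 63 members (13.4%), a count not made for the other groups.

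In the main tests small RNA genes (of tRNAs, snoRNAs, snRNAs, rRNAs and miRNAs) were called higher at members only against lower-ranked distal peaks. They lay within 200 bp of 32 members, 6.79% (4.85 to 9.43%), against 1.40% (1.08 to 1.81%) of lower-ranked distal peaks, a difference of 5.39 percentage points (adjusted p = 3.76e-09, Fisher's exact test). By the same Fisher exact test the share was 5.54% at strong promoter peaks (adjusted p = 0.512) and 5.66% at strong gene-body peaks (adjusted p = 0.551). With the narrower promoter window both comparisons were called, 8.36% of members against 5.01% and 5.09% (adjusted p = 0.0425 and 0.0302, exact tests). They were also called for members strong in both replicates, a filter on members alone (14.6%, adjusted p = 0.00797 and 0.0155, exact tests). At strong X distal peaks the share in the main test was 14.5%, higher than at members (adjusted p = 0.0363, exact test). This last call held in only 5 of 13 other settings. It was lost without replicate 2, with 6.28% at members and 12.8% at X distal peaks (adjusted p = 0.0646, exact test), and it turned round when peaks in repeated sequence were left out, with 5.56% and 5.04%. Members had 11 summits near a tRNA gene, 13 near a snoRNA gene, 4 near an snRNA gene, 5 near a miRNA gene and 0 near an rRNA gene. At lower-ranked distal peaks the counts were 19, 20, 5, 13 and 0 among 4065. Of the 32 members, 14 were in the top 3000 of both replicates, against 82 of the other 439.

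The windows at a pair of these members show how the summit sits against the gene. The sequences are again the plus strand of WBcel235 from RefSeq, centred on the summit, with capitals for bases inside the annotated small RNA gene.
mir-52 (chrIV:14033965-14034165): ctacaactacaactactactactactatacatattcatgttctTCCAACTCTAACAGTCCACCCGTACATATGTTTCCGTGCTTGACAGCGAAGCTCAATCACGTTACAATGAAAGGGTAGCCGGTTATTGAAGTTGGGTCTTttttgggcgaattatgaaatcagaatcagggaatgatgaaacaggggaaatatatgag
tRNA gene WBGene00014402 (chrIII:4470889-4471089): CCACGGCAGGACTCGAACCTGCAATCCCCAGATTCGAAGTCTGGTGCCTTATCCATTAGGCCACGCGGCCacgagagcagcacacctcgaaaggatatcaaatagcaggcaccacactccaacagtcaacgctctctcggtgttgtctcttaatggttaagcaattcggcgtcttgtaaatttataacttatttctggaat
The mir-52 summit, at position 14034065 of chromosome IV, lay inside the annotated hairpin, which the window holds whole with its 100 bases. The summit at the tRNA gene lay 31 bp outside it, and the gene, on the minus strand, fills the left part of the window with 70 bases.

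The member at sls-2.2, an SL2 spliced-leader RNA gene that supplies the leader for downstream genes of operons, was the strongest of the 32. Its summit was 38 bp from the gene, and the pooled signal was 198.9, with 114.4 in replicate 1 and 92.77 in replicate 2. A second member on the other side of sls-2.2 had a pooled signal of 87.03, with 63.31 in replicate 1 and 30.68 in replicate 2. The mir-52 member had a pooled signal of 179.5, with 100.7 in replicate 1 and 80.55 in replicate 2. The miRNA mir-52 belongs to the mir-51 family, which is needed in embryos. Both further members within 2000 bp of mir-52 had pooled signals of 90.7 and 90.24, so this gene had 3 members around it, all in the top 3000 of both replicates. A member 192 bp from mir-79 had 122.1 in the pooled list, with 66.11 in replicate 1 and 56.2 in replicate 2. In all, 13 members (2.76%) had a miRNA gene within 2000 bp, against 1.30% of lower-ranked distal peaks, a description with no test. The snoRNA member at C16D9.10 had a pooled signal of 111.8 and the member at the tRNA gene WBGene00014402 one of 107.9.

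Pseudogenes went the other way against lower-ranked distal peaks. A summit lay within 200 bp of one for 20 members, 4.25%, against 13.6% of lower-ranked distal peaks (adjusted p = 4.44e-09, Fisher's exact test), and 14.6% of tiled distal windows. By the same exact test the member share was higher than at strong promoter peaks, with 0.511% (adjusted p = 3.49e-06). It was also higher than at strong gene-body peaks, with 0.545% (adjusted p = 1.75e-05, exact test). The rule keeps members, but not those peaks, out of protein-coding genes and promoter windows, so these calls are not free of the rule. Strong X distal peaks had 2.17% (adjusted p = 0.512, exact test). Without replicate 1 the share was 8.21% of members and 14.1% of lower-ranked distal peaks (adjusted p = 0.00138, exact test), and without replicate 2 it was 3.98% and 13.0%. The pseudogene members included the one past H12I13.1, with a pooled signal of 163.0, and the one downstream of sup-35, with 142.0. Sequence that occurs elsewhere in the genome was counted where any 50-base word of the window was repeated. It was present at 8.28% of members and 4.0% of strong promoter peaks (adjusted p = 0.00419, Fisher's exact test). That comparison is not free of the rule either. At other distal peaks the shares were 8.09% at lower-ranked (adjusted p = 0.981) and 13.8% at strong X distal ones (adjusted p = 0.174, exact tests), and without replicate 1 the promoter difference was lost (6.91% against 3.92%, adjusted p = 0.0518, exact test).

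**Figure D4:**
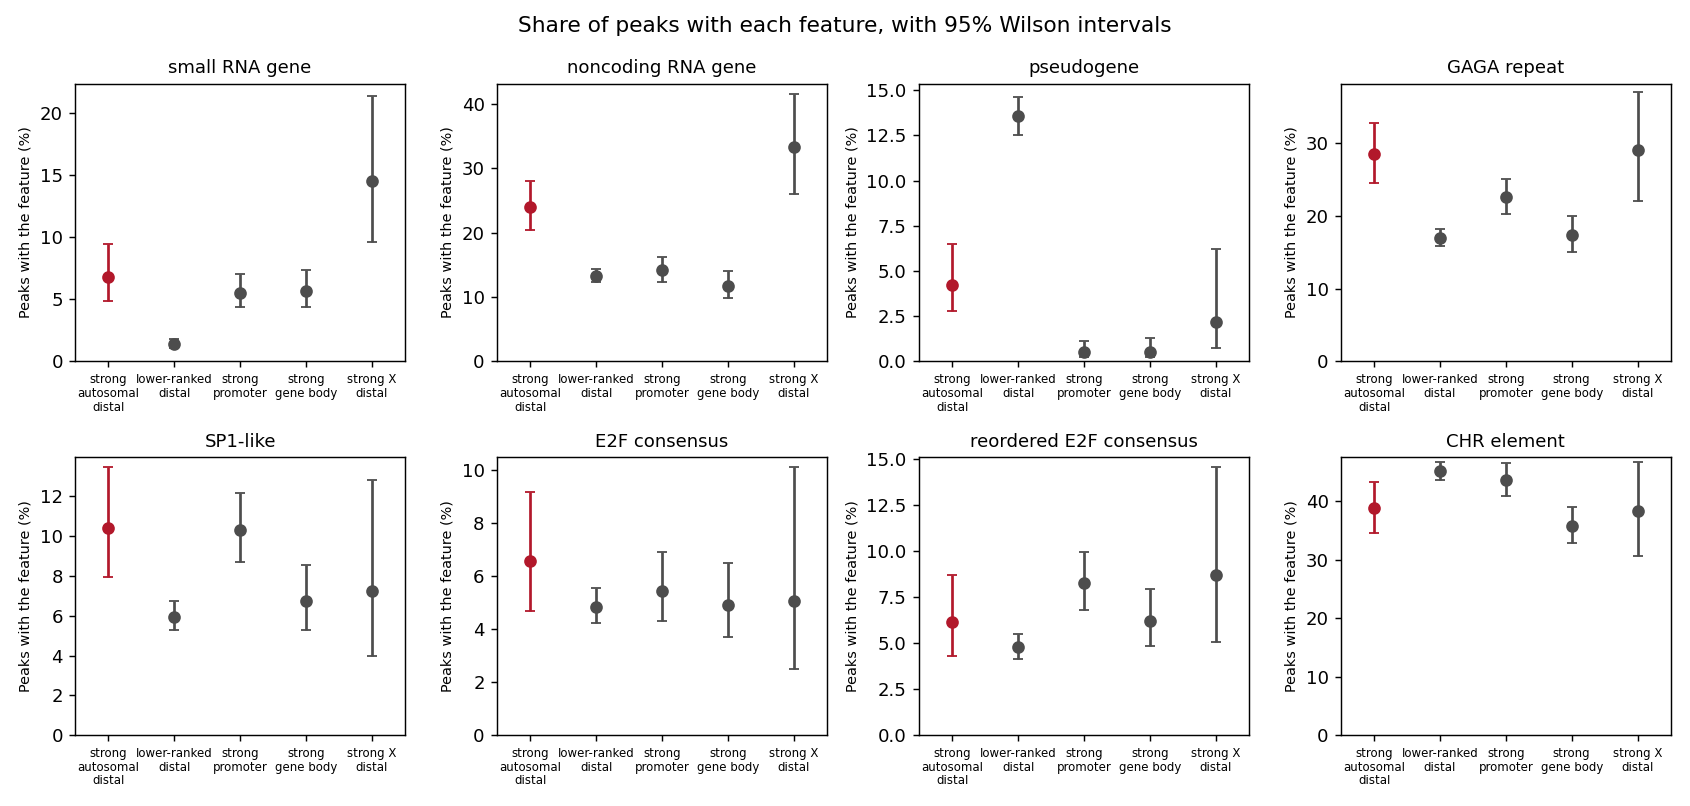
Percent of peaks with each of 8 features, in members (red) and in lower-ranked distal, strong promoter, strong gene-body and strong X distal peaks (grey), with 95% Wilson intervals over peaks. Noncoding RNA genes are near 24.0% of members and 13.3% of lower-ranked distal peaks, the GAGA repeat is at 28.5% and 16.9%, and for the E2F consensus the intervals overlap in all 5 groups.

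The GAGA repeat was more frequent at members than at lower-ranked distal and strong gene-body peaks. It was within 100 bp of the summit at 134 members, 28.5%, against 16.9% of lower-ranked distal peaks (adjusted p = 9.27e-08), 17.3% of strong gene-body peaks (adjusted p = 1.74e-05) and 22.6% of strong promoter peaks (adjusted p = 0.0458), by Fisher's exact test. The promoter call was lost in 7 of 14 other settings, with adjusted p up to 0.221. Strong X distal peaks had 29.0% (adjusted p = 0.985, exact test). Of tiled distal windows 10.5% had it, and of windows upstream of all protein-coding genes 16.4%. Among the 100 strongest members 42% had it and among the other 371 the share was 24.8%. GC content had a median of 42.3% at members, 42.3% at the other strong autosomal peaks, 43.3% at strong X distal peaks, 38.8% at lower-ranked distal peaks and 33.8% in tiled distal windows. Between 38 and 46% GC, the GAGA share was 30% at members and 18.6% at lower-ranked peaks (adjusted p = 0.00467, Fisher's exact test).

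The E2F consensus did not pass the test in any of the 4 comparisons. It was found at 31 members, 6.58% (4.68 to 9.19%), against 4.85% (4.23 to 5.55%) of lower-ranked distal peaks, a difference of 1.74 percentage points (adjusted p = 0.275, Fisher's exact test). Strong promoter peaks had 5.45% (adjusted p = 0.551) and strong gene-body peaks 4.90% (adjusted p = 0.414), by the same exact test, and tiled distal windows had 3.64%. Within 200 bp of the summit, in place of 100 bp, the shares were 13.8% of members and 9.27% of lower-ranked peaks (adjusted p = 0.0112, exact test). At that width strong gene-body peaks had 8.82% (adjusted p = 0.0179, exact test). The same letters in 3 other orders, a control for base composition, gave 6.16% of members and 4.77% of lower-ranked peaks (adjusted p = 0.414, exact test). Within 200 bp these reordered words passed in no comparison. This control passed the test under 4 other settings, without replicate 2 (9.41% against 4.26%, adjusted p = 4.23e-05), at rank limits of 1000 (10.3% against 4.77%, adjusted p = 0.0313) and 430 (17.8%, adjusted p = 0.0186), and for members strong in both replicates (13.5%, adjusted p = 0.00504), all by the exact test. In the 100 strongest members these reordered words were at 12% and the consensus at 6%. The control pools 3 orders and the consensus is a single one, so these shares are not like for like. In tiled distal windows the reordered words were at 3.13% and the consensus at 3.64%. A missing match says only that these letters were not in the window.

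The 6 members with an E2F match among the 100 strongest were nearest to ztf-27, F47G4.4, F53E10.5, F40E3.3, T09B4.8 and F30H5.3. After ztf-27 their pooled signals were between 86.6 and 96.48. The F53E10.5 member had a pooled signal of 95.22, with 54.21 in replicate 1 and 40.35 in replicate 2. The F30H5.3 member, 31 bp from the snoRNA gene F30H5.4, had 86.6, with 60.84 in replicate 1 and 27.9 in replicate 2, ranks 319 and 7721. Of these 6 members, 3 overlapped repeated sequence.

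Other motifs gave smaller differences. The SP1-like word CCGCCC was at 10.4% of members and 5.95% of lower-ranked distal peaks (adjusted p = 0.00258, Fisher's exact test), and strong promoter peaks had 10.3%. Without replicate 2 the call was lost (7.53% against 5.86%, adjusted p = 0.347, exact test), and between 38 and 46% GC the shares were 7.78% and 7.79%. The CHR element (TTCGAA or TTTGAA), which recruits the DREAM complex at cell-cycle genes, was at 38.9% of members and 45.2% of lower-ranked peaks (adjusted p = 0.0377, exact test). That call was lost in 9 of 14 other settings, among them without replicate 1 (adjusted p = 0.0902, exact test), and between 38 and 46% GC the shares were 38.89% and 38.94%. The B box of RNA polymerase III genes (GTTCGANNC) was at 4.03% of members and 2.02% of lower-ranked peaks (adjusted p = 0.0445, exact test), a call that was lost under 12 of 14 other settings, including without either replicate. The E-box CACGTG, the GATA site TGATAA and the AP-1-like site TGACTCA passed in none of the comparisons, with member shares of 5.52%, 13.2% and 2.55%. All motifs were searched on both strands, and the CHR element and the B box share letters (TTCGA).

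By the genes they were nearest to, members covered 421 protein-coding genes. The list of developmental transcription factors outside the homeobox and nuclear receptor families was nearest to 24 members, 5.10%, against 2.80% of lower-ranked distal peaks, 1.62% of strong promoter peaks and 0.971% of all protein-coding genes. Those 24 members shared 16 genes, so they are not independent. The strongest after ztf-27 lay 3065 bp upstream of sptf-3, an SP-family factor linked to apoptosis, with a pooled signal of 105.6, and 52.11 in replicate 1 and 49.03 in replicate 2. The member 5280 bp upstream of dmd-6, a doublesex-related gene, had 99.68, with 46.91 in replicate 1 and 54.04 in replicate 2, and its summit lay inside a tRNA gene. Nuclear hormone receptors were nearest to 9 members (1.91% against 1.99%) and homeobox genes to 4 (0.849% against 1.62%). The homeobox members included the Hox genes ceh-13, with a pooled signal of 73.79, and mab-5, with 68.74. No list was tested, and the lists were chosen with results of these data known.

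Cell-cycle, E2F, DREAM and cell-death genes were nearest to 7 members, 1.49%, against 0.590% of lower-ranked distal peaks and 1.62% of strong promoter peaks. Besides cdc-48.1 and efl-3, these included cdk-14, air-2 and the neighbouring cki-1 and cki-2, genes of cyclin-dependent kinase inhibitors. The cdk-14 member, 2323 bp upstream, had a pooled signal of 85.0 but no summit within 100 bp in either replicate list. The air-2 member, 1527 bp downstream of the start, had 66.69, with 36.18 in replicate 1 and 35.08 in replicate 2. The cki-1 member, 2954 bp upstream, had a pooled signal of 82.71, with 39.45 in replicate 1 and 39.27 in replicate 2. The cki-2 member, 2183 bp upstream, had 78.99, with 32.03 in replicate 1 and 44.31 in replicate 2. The member 1501 bp upstream of egl-1, the BH3 gene that starts programmed cell death, was among the weaker ones, with a pooled signal of 61.75, rank 2582. It had 38.74 in replicate 1, rank 1808, and 20.41 in replicate 2, rank 22868.

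Among the remaining lists, signalling genes of the Wnt, Notch, EGF, FGF and TGF-beta pathways were nearest to 6 members (1.27% against 0.664% of lower-ranked distal peaks), led by let-756, an FGF gene, with a pooled signal of 73.29. By the nearest protein-coding start, lin-41, the TRIM-NHL target of let-7, was the only gene of the heterochronic list. It was nearest to 1 member (0.212% against 0.0738%). This member, 1422 bp upstream, had 94.26 in the pooled list, with 48.08 in replicate 1 and 38.61 in replicate 2. Neuropeptide and insulin-like genes were nearest to 3 members (0.637% against 1.23%), 1 at nlp-40 and 2 at ins-13, with ins-13 beside sls-2.2. Chemoreceptor genes were nearest to 9 members, 1.91%, against 4.48% of lower-ranked distal peaks, 0.681% of strong promoter peaks and 6.56% of all protein-coding genes. Collagen genes were nearest to 4 members (0.849% against 0.812% of lower-ranked distal peaks). Ribosomal protein genes were nearest to 1 (0.212% against 0.418%) and histone genes to 0, against 0.197%.

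By chromosome, 107 members were on chromosome I, 66 on II, 99 on III, 104 on IV and 95 on V. Chromosome I held 22.7% of members, 21.0% of strong promoter peaks, 22.4% of strong gene-body peaks and 17.3% of lower-ranked distal peaks, and chromosome II held 66 of them and 737 lower-ranked peaks. The middle of a chromosome, between 1/3 and 2/3 of its length, held 25.3% of members, against 33.4% of strong promoter peaks (adjusted p = 0.00557, Fisher's exact test). The share was 24.6% at lower-ranked distal peaks (adjusted p = 0.907, exact test), 21.8% at strong gene-body peaks and 21.7% at strong X distal peaks. The promoter difference was lost in 5 of 13 other settings, among them without replicate 2 (27.4% against 32.3%, adjusted p = 0.155, exact test).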

How the data were processed

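ChIP-seq peak lists of 2 biological replicates were used, with 1 list per replicate, 1 called on both pooled and the authors' thresholded reproducible set, all on ce11 per the labels. The signal value per peak and the −log10 q-value are as the authors deposited them. Which aligner, peak caller, settings and threshold were used is not given in the sources used here, and fragments were of 200 to 800 bp per the labels. All lists rest on 1 control alignment per the deposited file descriptions. Read depth is unknown, so no interval that needs it is given. Lists of relaxed peaks reach into background.

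The members and lists were chosen with earlier results of these data known. Genes came from Ensembl release 115 (WBcel235) and sequence from RefSeq of that assembly, which no peak overran. Strong means ranks 1 to 3000 by signal. Replicate summits within 100 bp were matched. Features were counted within 100 bp (motifs, repeated 50-base words) or 200 bp (genes) of the summit and compared by two-sided Fisher exact tests, adjusted over 56. Intervals are 95% Wilson intervals over peaks. Named were the 25 strongest members, the 5 farthest from a start, the 5 on each side of the rank limit, those near efl-3, those with an E2F match among the 100 strongest and up to 4 per gene list. Others (the pop-1, egl-27 and sup-26 gaps, egl-1, cki-2, air-2 and the small RNA genes) were chosen after their values were seen. Python 3.11.15, pandas 2.3.3 and SciPy 1.17.1 were used. Motif search was checked only with a planted E2F word in simulated sequence of A and T, which cannot show false matches. The other motifs were not checked that way. The Fisher tests were checked on independent simulated draws, which neighbouring peaks are not. Position classes and repeated words were checked by direct search at real peaks. Nothing was compared between conditions.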

Additional observations from a re-analysis of the deposited data

How the results depend on the processing

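Read depth decides which peaks reach the lists and is unknown. Only 96 members were strong in both replicates, and p-values over peaks describe these lists, not worm cultures. The higher shares at members than at lower-ranked distal peaks kept direction and call in 13 of 13 settings for small RNA genes, 13 of 13 for noncoding RNA genes and 14 of 14 for the GAGA repeat. The lower pseudogene share kept them in 12 of 14. The 5 settings on GC, spacing, chromosome position, noncoding genes and repeats were chosen after seeing the data. Against strong gene-body peaks the noncoding RNA share reversed at a rank limit of 430 (35.6% against 39.3%). Within 38 to 46% GC, the SP1-like share reversed (7.78% against 7.79%), as did repeated sequence against strong promoter peaks (4.44% against 4.67%). Against X distal peaks the small RNA share reversed without repeated sequence (5.56% against 5.04%). It also reversed for members strong in both replicates (14.6% against 14.5%). That last setting filtered the members alone, here and in the counts below, though 49 of the 138 strong X distal peaks also met it. The cause of these reversals was not tested.

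The number of members was 145 at a rank limit of 1000, 45 at 430, 96 when strong in both replicates and 180 within 38 to 46% GC. The number of features that differed from lower-ranked distal peaks, 7, was 4 at rank 430, 4 within 38 to 46% GC and 2 without peaks near a noncoding RNA gene, a setting that drops 2 of the features. From strong promoter peaks it was 3 at rank 1000, 0 at rank 430, 2 within that GC range and 3 without peaks near a noncoding RNA gene, in place of 5. From strong gene-body peaks it was 0 at both lower rank limits, 6 with the narrower promoter window, 5 for members strong in both replicates and 6 with wider windows around summits, in place of 3. From X distal peaks it was 0 in both lower rank limits, the wider promoter window, the members strong in both replicates, chromosome ends alone, and without noncoding or repeated peaks, and it was 3 within that GC range, in place of 1. Leaving out a replicate gave 463 to 478 members and 5 to 6, 4 to 4, 3 to 3 and 1 to 2 features against lower-ranked, promoter, gene-body and X distal peaks. No paired analysis was possible because there is 1 group.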

Other observations

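A short word drew attention at members that share no gene family. The word AGTACACGG was seen at strong members after all words of 7 and 8 bases had been looked through, with 5 longer or shorter words picked by eye, so it carries no test. It was within 100 bp of the summit at 3 members, 0.637%, against 0.0984% of lower-ranked distal peaks, 1.79% of strong promoter peaks and 0.0781% of tiled distal windows. Those members, at F58D12.3 (pooled signal 273.7), H12I13.1 (163.0) and Y50D4A.10 (64.54), are shown as 69 bases of the plus strand of WBcel235 from RefSeq around the word, in capitals.
F58D12.3 (chrV:14055183-14055251): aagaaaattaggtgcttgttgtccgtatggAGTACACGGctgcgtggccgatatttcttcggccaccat
H12I13.1 (chrII:6061648-6061716): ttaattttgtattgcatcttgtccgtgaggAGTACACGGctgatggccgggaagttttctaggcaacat
Y50D4A.10 (chrV:1221817-1221885): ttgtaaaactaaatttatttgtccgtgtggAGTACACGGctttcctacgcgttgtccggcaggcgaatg
A second word, TGCGTCTCT, was at 21 members (4.46%), 9 of them among the 100 strongest, against 2.31% of lower-ranked distal peaks and 3.15% of strong promoter peaks, and the window at T04C4.3 holds it.

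Members that lay within 500 bp past a protein-coding 3′ end made up 18.3%, against 14.3% of lower-ranked distal peaks, a count made after the data were seen.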
